A study of Xenopus laevis with 51 samples.

Results

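The genes of antigen presentation and the interferon response examined here were CD274, B2M, CD74, TAP1, TAP2, TAPBP, IRF1, IFITM3 and NLRC5. Every entry of the gene table whose symbol was one of these names was taken, and homeolog entries, the gene copies that the ancestral duplication left in the Xenopus laevis genome, were kept apart. The rule found 15 of 24381 entries, which carry 8 of the 9 symbols, and NLRC5 was not analysed here. Entries of one symbol are numbered by their mean level over all 51 libraries, so that entry 1 is the highest.

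Levels were measured in hindbrains after spinal cord injury (SCI), a complete transection at the mid-thoracic level, and in whole eyes after optic nerve crush (ONC). SCI tadpoles of stage 53 were sampled at 3 days, 7 days and 3 weeks, each with unoperated tadpoles of matched age. SCI juvenile frogs of 1 to 3 months after metamorphosis were sampled at the same times, against 1 group of unoperated juvenile frogs. ONC eyes of juvenile frogs of the same age were sampled 3 days, 11 days or 3 weeks after crush, each with the contralateral, uncrushed eyes of the operated frogs, and naive eyes came from frogs with no surgery. All animals were of an albino strain from one supplier, their sex was not determined, and operated animals were kept in water with gentamicin. Each of the 17 groups had 3 libraries, each from 5 pooled hindbrains or 6 pooled eyes, so that the tests measure the spread between pools and not between animals. The values are FPKM, read counts scaled to the length of the gene model and the size of the library, and can be set side by side between genes.

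Nearly all nucleated vertebrate cells display peptides on major histocompatibility complex (MHC) class I molecules. The proteasome cuts proteins into peptides, the transporter made of TAP1 and TAP2 carries them into the endoplasmic reticulum, tapasin (TAPBP) holds the empty class I heavy chain at the transporter, and beta-2 microglobulin (B2M) is the light chain of the finished complex. Class II molecules are made mainly by macrophages, microglia, dendritic cells and B cells. There the invariant chain (CD74) guards the peptide groove and is cut by lysosomal proteases such as CTSS and CTSD. Interferons raise many of these genes through STAT and IRF transcription factors, among them IRF1, and IFITM3 is an interferon-induced membrane protein that in mammals hinders virus entry. CD274 (PD-L1) is a ligand that restrains T cells through PDCD1. These roles come mainly from mammals, and the symbols were given to frog genes by similarity to human genes.

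The first entries of B2M and CD74 were the most abundant members. Over all 51 libraries B2M entry 1 averaged 134.9 FPKM, CD74 entry 1 73.6 FPKM, B2M entry 2 44.6 FPKM and CD74 entry 2 44.2 FPKM. CD274 entry 1 averaged 24.6 FPKM, IFITM3 entry 1 14.5 FPKM, and IRF1 entry 1 and TAPBP entry 1 8.67 FPKM each. TAP1 averaged 1.96 FPKM, TAP2 0.917 FPKM and CD274 entry 3 0.0639 FPKM. CD274 entry 3 was at 0 in 16 libraries and never reached the 0.45 FPKM that an entry needed, as a mean in 1 of the compared groups, to be tested.

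The gene table places the entries on scaffolds of the JGIv7b assembly. TAP1 (scaffold 75398, bases 288818 to 329239, minus strand) and TAP2 (same scaffold, bases 305041 to 329239, plus strand) overlap on opposite strands. Whether the authors counted reads by strand is not stated, so the reads of TAP1 and TAP2 cannot be told apart where they overlap. CD274 entry 1 (scaffold 141248, bases 436404 to 438277) and entry 2 (same scaffold, bases 427587 to 429534) are neighbours on the minus strand. TAPBP entry 1 lies on scaffold 50694 and entry 2 on scaffold 12933, B2M entries 1 and 2 on scaffolds 74488 and 197913, CD74 entries 1 and 2 on scaffolds 187759 and 137507, IRF1 entries 1 and 2 on scaffolds 18892 and 48253, and IFITM3 entries 1 and 2 on scaffolds 51988 and 74352. Reads that fitted both homeologs equally were given to one of them at random by the authors, so the split between the entries of a symbol is less certain than their sum.

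The depth in reads is not known from FPKM. With the FPKM contributed by a single read in the median library set to 1, tadpole hindbrains ranged over 0.747 to 1.15, frog hindbrains over 1.03 to 1.53 and eyes over 0.804 to 1.75. The tissues carried their own markers. A hindbrain list of 22 entries (SNAP25, SYT1, MBP and others) summed to 454 to 631 FPKM in eye libraries and 3148 to 21929 FPKM in hindbrain libraries. An entry of GNAT1, the transducin of rod photoreceptors, averaged 1097 ± 62.4 FPKM in naive eyes and 0.456 ± 0.554 FPKM in unoperated frog hindbrains (SD, n = 3 each). GFAP was not analysed here. In the library names, all 3 unoperated frog hindbrains and no other library carry a letter R, so that the letter and the control group cannot be told apart, and 8 eye libraries carry a letter B. The labels do not explain either letter. Unoperated frog hindbrains had 1857 to 1980 entries at 0 and frog SCI hindbrains 1204 to 1723, ranges that do not overlap. The part of this in the frog comparisons was not tested.

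Most members were higher in the eye than in the hindbrain. In naive eyes 13 of 14 tested member entries were higher than in unoperated frog hindbrains, where 77.3% of all entries tested were called and 41.4% were higher (limma on log2(FPKM + 0.5), Benjamini-Hochberg adjusted p at most 0.05). The added 0.5 FPKM makes fold changes of weakly expressed entries smaller than they are. The median log2 difference was 1.98 for the 14 member entries and 0.08 for all entries tested. The 14 entries of a myeloid and microglial list (C1QA, ITGB2, SPI1 and others) summed to 43.3 to 48.9 FPKM in naive eyes and 17.5 to 21.8 FPKM in unoperated frog hindbrains, with 10 of 13 tested entries higher, and their part in the member values was not tested. B2M entry 1 stood at 238, 343 and 294 FPKM in naive eyes and at 35.7, 37.8 and 40.2 FPKM in unoperated frog hindbrains (log2 difference 2.91 ± 0.13, adjusted p = 1.8e-07). CD74 entry 2 reached 95.1, 111 and 101 FPKM in naive eyes, against 5.73, 6.65 and 7.14 FPKM in unoperated frog hindbrains (3.87 ± 0.09, adjusted p = 8.1e-09). No library of one tissue came near the range of the other for these entries. IRF1 entry 1 had 18.1, 26.1 and 21.8 FPKM in naive eyes, against 1.53, 1.73 and 2.63 FPKM in unoperated frog hindbrains (3.20 ± 0.19, adjusted p = 1.1e-06). IFITM3 entry 1 had 23.2, 30.0 and 25.7 FPKM in naive eyes, against 2.17, 2.91 and 3.03 FPKM in unoperated frog hindbrains (3.07 ± 0.14, adjusted p = 2.1e-07). TAPBP entry 1 was the member entry not called, at 9.23, 9.85 and 8.69 FPKM in naive eyes and 8.01, 8.50 and 8.94 FPKM in unoperated frog hindbrains, groups that overlap (difference 0.12, 95% interval -0.07 to 0.31).

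Over all libraries, 6 of the 14 tested entries were higher in each of the 21 eye libraries than in any of the 30 hindbrain libraries. These were both B2M entries, CD74 entry 2, TAPBP entry 2 and both IRF1 entries. The share of all entries with such a separation was not computed, so nothing is read from this count. TAPBP entry 1 varied least, with a highest group mean 1.42 times its lowest, and CD74 entry 2 most, at 99.2 times. The balance of the CD74 homeologs also differed in range between the tissues. Entry 1 made up 49.6% to 66.2% of CD74 in the eye libraries and 74.0% to 85.0% in the hindbrain libraries, 2 ranges that do not meet. For TAPBP the share of entry 1 was 71.7% to 85.4% in eyes and 90.2% to 99.7% in hindbrains. The share of B2M entry 1, in contrast, overlapped between eyes (69.2% to 80.6%) and hindbrains (73.3% to 85.5%). These shares carry no test.

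Ranked by group mean, B2M entry 1 placed the 7 eye groups first, at 213 to 375 FPKM, followed by frog SCI hindbrains of 3 weeks, 7 days and 3 days at 70.8, 67.0 and 54.2 FPKM. Tadpole SCI hindbrains of 3 weeks (47.2 FPKM) and unoperated frog hindbrains (37.9 FPKM) came next, and unoperated tadpole hindbrains of 3 days stood last at 17.6 FPKM. Of the 16 neighbouring pairs in this order, 13 overlapped in their library values, and the breaks lay between eye and hindbrain, below the unoperated frogs, and below the unoperated tadpoles of 7 days. CD74 entry 1 also had the 7 eye groups on top (93.2 to 198 FPKM) and unoperated tadpoles of 3 days at the bottom (3.91 FPKM), with 13 of 16 neighbours overlapping. For CD274 entry 1, 2 hindbrain groups ranked among the eyes. Frog SCI hindbrains of 7 and 3 days (30.9 and 29.6 FPKM) ranked above ONC and contralateral eyes of 3 weeks (28.1 and 27.8 FPKM), and unoperated tadpoles of 3 weeks ranked last at 4.16 FPKM.

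**Figure D1:**
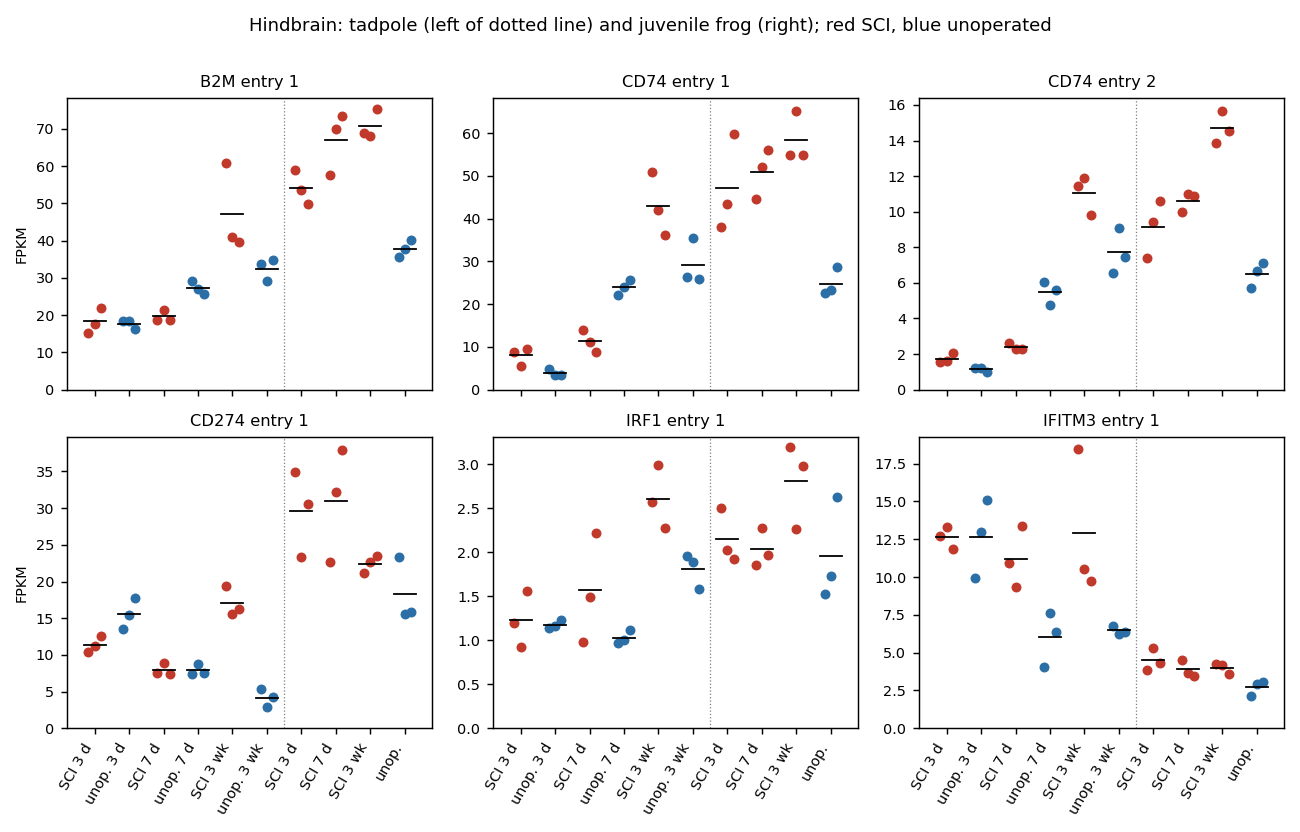
FPKM (vertical axes, linear) of 6 member entries in each hindbrain library, 3 libraries per group, with the group mean as a black line. Red points are SCI and blue points unoperated hindbrains, and the dotted line separates tadpoles from juvenile frogs. CD74 entry 1 of the tadpole SCI hindbrain at 7 days (mean 11.3 FPKM) lies below its unoperated controls (23.9 FPKM), whereas at each time in frogs the SCI libraries lie above the unoperated libraries.

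Several members differed between the unoperated tadpoles matched to 7 days and those matched to 3 days. These are separate sets of pools with different names in the labels (control and unoperated), so that age and set cannot be told apart. The names of the unoperated set give NA in place of a time. It was taken as the 3-day set because the paper describes age-matched controls for each time. The unoperated libraries of 7 days serve here and as controls of SCI, so the 2 comparisons are not independent. In unoperated tadpole hindbrains of 7 days against 3 days, 5 of 13 tested entries were called, 3 higher and 2 lower, where 51% of all entries tested were called, 24.9% higher and 26% lower. CD74 entry 1 had 22.2, 24.0 and 25.6 FPKM at 7 days, against 4.88, 3.46 and 3.39 FPKM at 3 days (2.48 ± 0.13, adjusted p = 9.6e-06). CD74 entry 2 had 6.04, 4.77 and 5.60 FPKM at 7 days, against 1.24, 1.21 and 0.987 FPKM at 3 days (1.86 ± 0.13, adjusted p = 2.7e-05). Both invariant chain entries were higher with no overlap, and so was B2M entry 1, with 29.3, 27.0 and 25.8 FPKM at 7 days and 18.5, 18.3 and 16.1 FPKM at 3 days (0.62 ± 0.08, adjusted p = 3.4e-04). CD274 entry 1 was lower, with 7.42, 8.75 and 7.54 FPKM at 7 days and 13.5, 15.4 and 17.8 FPKM at 3 days (-0.93 ± 0.11, adjusted p = 2.5e-04). IFITM3 entry 1 was lower as well, with 4.03, 7.62 and 6.37 FPKM at 7 days and 9.92, 13.0 and 15.1 FPKM at 3 days (-1.04 ± 0.22, adjusted p = 0.0039). All 5 calls held without any 1 of the 6 libraries. The share of members called, 38.5%, was below that of all entries.

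At 3 weeks against 7 days, 0 of 13 tested entries were called in unoperated tadpoles (0.574% of all entries, limma), and 7 had an unadjusted p under 0.05. CD274 entry 1 was again lower at 3 weeks (5.35, 2.93 and 4.21 FPKM) than at 7 days (7.42, 8.75 and 7.54 FPKM), without overlap but short of the threshold (-0.88 ± 0.18, adjusted p = 0.076). Set against these 3-week tadpoles, unoperated frog hindbrains had 5 of 14 tested entries called, 3 higher and 2 lower, with 34.6% of all entries called, 18.1% higher and 16.4% lower. CD274 entry 1 was higher in frogs, at 23.4, 15.6 and 15.8 FPKM against 5.35, 2.93 and 4.21 FPKM in tadpoles (2.02 ± 0.22, adjusted p = 5.2e-04). CD274 entry 2 (0.84 ± 0.27, adjusted p = 0.041) and B2M entry 2 (0.56 ± 0.12, adjusted p = 0.0086) were also higher in frogs. IFITM3 entry 1 was lower, at 2.17, 2.91 and 3.03 FPKM in frogs against 6.78, 6.26 and 6.39 FPKM in tadpoles (-1.13 ± 0.13, adjusted p = 7.3e-04), and IRF1 entry 2 was lower too (-0.62 ± 0.20, adjusted p = 0.042). The CD274 entry 2 call was lost without frog replicate 1 or 2 or tadpole replicate 1 or 3, and that of IRF1 entry 2 without any library but frog replicate 3 (adjusted p up to 0.13 and 0.12).

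The first entries of CD74 and B2M were each called in 4 of the 6 SCI comparisons, lower in tadpoles at 7 days and higher in frogs at all 3 times. In tadpole SCI hindbrains at 7 days CD74 entry 1 had 13.9, 11.2 and 8.79 FPKM, against 22.2, 24.0 and 25.6 FPKM in unoperated tadpoles. CD74 entry 2 had 2.63, 2.27 and 2.30 FPKM in SCI hindbrains, against 6.04, 4.77 and 5.60 FPKM in unoperated tadpoles. Every SCI library was below every unoperated library for both. The log2 differences were -1.07 ± 0.15, adjusted p = 0.013 for entry 1 and -1.04 ± 0.13, adjusted p = 0.0094 for entry 2. They were 2 of the 3 falls among 13 tested entries at this time, beside 1 rise, when 2.06% of all entries were called lower, 2.85% higher and 4.91% in all. The call of entry 1 was lost without SCI replicate 2 or unoperated replicate 2 (-1.08 to -1.07, adjusted p = 0.05 to 0.058), and that of entry 2 held without any 1 library. Bulk tissue was measured, so fewer cells of a type and less RNA per cell cannot be told apart here or elsewhere.

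Because CD74 differed between the unoperated tadpoles of 7 and 3 days, the 7-day SCI hindbrains were also set against the unoperated tadpoles of 3 days, a comparison chosen after the values were seen. The SCI values of CD74 entry 1 (8.79 to 13.9 FPKM) lie between those of the unoperated tadpoles of 3 days (3.39 to 4.88 FPKM) and of 7 days (22.2 to 25.6 FPKM), with no overlap on either side. Against 3-day controls the log2 difference was 1.41, adjusted p = 0.0061 by limma, and for entry 2 it was 0.82, adjusted p = 0.012. CD74 in the injured tadpole hindbrain was thus below the controls of 7 days and above those taken as 3-day controls, whose names give no time. At 3 days CD74 entry 1 had 8.88, 5.53 and 9.62 FPKM in SCI hindbrains and 4.88, 3.46 and 3.39 FPKM in unoperated hindbrains, without overlap but not called (0.93 ± 0.20, adjusted p = 0.056). Same-numbered libraries of this comparison deviated together, and with the replicate number as a block the call was made (0.93 ± 0.14, adjusted p = 0.018 by limma). At 3 weeks it had 50.9, 42.1 and 36.1 FPKM in SCI hindbrains and 26.4, 35.4 and 26.0 FPKM in unoperated hindbrains, again without overlap and not called (0.55 ± 0.15, adjusted p = 0.16).

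In juvenile frogs CD74 was higher in SCI than in unoperated hindbrains, and all 3 unoperated libraries carry the letter R. SCI and the letter therefore cannot be told apart here. CD74 entry 1 had 38.0, 43.5 and 59.8 FPKM in SCI hindbrains at 3 days, against 22.5, 23.3 and 28.6 FPKM in unoperated frogs (0.89 ± 0.16, adjusted p = 0.016). It had 44.7, 52.2 and 56.0 FPKM in SCI hindbrains at 7 days (1.02 ± 0.11, adjusted p = 0.0097) and 55.0, 65.1 and 54.8 FPKM at 3 weeks (1.22 ± 0.11, adjusted p = 0.0098). No SCI library fell into the range of the unoperated frogs, 22.5 to 28.6 FPKM, at any time. CD74 entry 2 had 7.39, 9.40 and 10.6 FPKM in SCI hindbrains at 3 days, against 5.73, 6.65 and 7.14 FPKM in unoperated frogs, and was not called (0.45 ± 0.14, adjusted p = 0.077). It was called at 7 days, with 10.001, 11.0 and 10.9 FPKM in SCI hindbrains (0.67 ± 0.10, adjusted p = 0.027), and at 3 weeks, with 13.9, 15.6 and 14.6 FPKM (1.12 ± 0.10, adjusted p = 0.0098). The 3 frog comparisons share their 3 unoperated libraries, so they are not independent of each other. Without unoperated replicate 2 the calls of entry 1 were lost at 3 days (0.85, adjusted p = 0.066), 7 days (0.98, adjusted p = 0.053) and 3 weeks (1.18, adjusted p = 0.061), and the last also without SCI replicate 3 (1.26, adjusted p = 0.065). Those of entry 2 were lost without the same 2 libraries at 3 weeks (adjusted p = 0.061 and 0.083) and without any SCI library or unoperated replicate 2 at 7 days (0.65 to 0.71, adjusted p = 0.058 to 0.11).

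B2M, the class I light chain, had calls in the same direction as CD74 at its first entry in tadpoles at 7 days and in frogs. In tadpoles at 3 days it overlapped between the groups, with means of 18.3 FPKM in SCI and 17.6 FPKM in unoperated hindbrains. CD74 entry 1 did not overlap there (means of 8.01 and 3.91 FPKM). In tadpole SCI hindbrains at 7 days B2M entry 1 had 18.8, 21.4 and 18.7 FPKM, against 29.3, 27.0 and 25.8 FPKM in unoperated tadpoles, and fell without overlap (-0.47 ± 0.09, adjusted p = 0.028). This call was lost without any library other than SCI replicate 3 (-0.53 to -0.42, adjusted p = 0.061 to 0.1). Against the unoperated tadpoles of 3 days the difference was 0.15, adjusted p = 0.26. In frogs B2M entry 1 had 59.1, 53.7 and 49.9 FPKM in SCI hindbrains at 3 days, against 35.7, 37.8 and 40.2 FPKM in unoperated hindbrains (0.51 ± 0.08, adjusted p = 0.0098). It had 57.7, 70.0 and 73.5 FPKM in SCI hindbrains at 7 days (0.81 ± 0.10, adjusted p = 0.011) and 68.9, 68.1 and 75.3 FPKM at 3 weeks (0.89 ± 0.07, adjusted p = 0.0098). All 9 frog SCI libraries were above the 3 unoperated ones, which carry the letter R. The call at 3 days held without any 1 library, that at 7 days was lost without SCI or unoperated replicate 2 (adjusted p = 0.064 and 0.063), and that at 3 weeks without SCI replicate 3 or unoperated replicate 2 (adjusted p = 0.065 and 0.061). B2M entry 2 was called in no injury comparison. Its 3-day values in frogs were 14.2, 13.9 and 14.8 FPKM in SCI hindbrains and 10.9, 13.4 and 10.3 FPKM in unoperated hindbrains (0.31 ± 0.10, adjusted p = 0.09).

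The 2 responses were compared directly with an interaction term, the tadpole log2 response minus the frog one. At 7 days 3 of 14 member entries differed, all lower in tadpoles, with 4.35% of all entries called and 2.44% lower. The difference was -2.10 ± 0.20, adjusted p = 2.5e-04 for CD74 entry 1, -1.71 ± 0.16, adjusted p = 1.8e-04 for CD74 entry 2 and -1.28 ± 0.13, adjusted p = 5.2e-04 for B2M entry 1. Each held without any 1 of the 12 libraries. All 3 terms rest on the unoperated tadpoles of 7 days and on unoperated frogs that carry the letter R. Leaving out 1 library does not address the choice of either set. Against the unoperated tadpoles of 3 days the tadpole differences were positive, 1.41 and 0.82 for CD74 entries 1 and 2 and 0.15 for B2M entry 1. The terms were not computed with those controls. At 3 days and 3 weeks the CD74 and B2M responses were not called different. For CD74 entry 1 the 3-day difference was 0.04 (95% interval -0.60 to 0.67), an interval wide enough to hold a difference of either sign.

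The sum of myeloid and microglial markers was higher after SCI in frogs, and in tadpoles at 3 days and 3 weeks. A list of 14 entries (C1QA, C1QB, C1QC, FCER1G, ITGB2, PTPRC, SPI1 and others) summed to 38.4 to 47.0 FPKM in frog SCI hindbrains at 3 days, 37.9 to 43.8 FPKM at 7 days and 35.5 to 41.0 FPKM at 3 weeks, against 17.5 to 21.8 FPKM in unoperated frogs. Of its tested entries 3 of 12 rose at 3 days, 3 of 12 at 7 days and 2 of 11 at 3 weeks, and none fell. The risen ones were C1QA, C1QB and C1QC at 3 and 7 days and C1QA and C1QC at 3 weeks. No other entry of the list was called. At 3 days C1QA averaged 9.99 FPKM in frog SCI hindbrains against 3.47 FPKM in unoperated frogs, C1QB 9.18 against 4.86 FPKM and C1QC 8.76 against 2.36 FPKM. In tadpoles the sum was 16.3 to 23.2 FPKM in SCI hindbrains at 7 days and 15.1 to 20.9 FPKM in unoperated hindbrains, ranges that overlap, with 0 of 9 entries called. At 3 days it was 16.7 to 18.5 FPKM in tadpole SCI hindbrains and 9.25 to 16.0 FPKM in unoperated tadpoles, and at 3 weeks 24.5 to 34.3 FPKM in SCI hindbrains and 17.6 to 24.1 FPKM in unoperated tadpoles. Neither of these pairs of ranges overlaps, with 0 of 6 and 0 of 10 entries called. Of the 14 entries 0 were at 0 throughout any frog group and 1 throughout each of both tadpole groups of 7 days, and CSF1R, AIF1, CD68 and MPEG1 were not analysed here. T cell markers summed to 6.09 to 6.62 FPKM in frog SCI hindbrains at 3 days and 4.87 to 6.89 FPKM in unoperated frogs, with 0 of 6 tested entries called. The part of these cells in the CD74 and B2M values was not tested.

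CD274 entry 1 had its own course. In tadpole SCI hindbrains at 3 weeks it had 19.4, 15.5 and 16.3 FPKM, against 5.35, 2.93 and 4.21 FPKM in unoperated tadpoles. The groups lie far apart, and this was the single member call of 14 tested entries at a time when 0.101% of all entries were called and 0.0251% were higher (1.94 ± 0.18, adjusted p = 0.027). The call was lost without any SCI replicate or unoperated replicate 3 (1.85 to 2.004, adjusted p = 0.065 to 0.16). CD274 entry 2 stood at 0.757, 0.316 and 0.555 FPKM in SCI hindbrains and 0.0961, 0.222 and 0 FPKM in unoperated hindbrains, without overlap and not called (0.78 ± 0.24, adjusted p = 0.19). Earlier, entry 1 was lower after tadpole SCI at 3 days, with 10.4, 11.2 and 12.5 FPKM in SCI and 13.5, 15.4 and 17.8 FPKM in unoperated hindbrains, without overlap and not called (-0.43 ± 0.11, adjusted p = 0.078), although it was called with the replicate number as a block (-0.43 ± 0.07, adjusted p = 0.018 by limma). At 7 days the groups overlapped, at 7.51, 8.92 and 7.37 FPKM in SCI and 7.42, 8.75 and 7.54 FPKM in unoperated hindbrains (difference 0.00, 95% interval -0.26 to 0.26).

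In frogs CD274 entry 1 was called at 3 days, with 34.9, 23.3 and 30.5 FPKM in SCI hindbrains and 23.4, 15.6 and 15.8 FPKM in unoperated hindbrains. The lowest SCI library was just under the highest unoperated one, so the groups touch (0.69 ± 0.18, adjusted p = 0.049). This call was lost without SCI replicate 1 or 3 or unoperated replicate 2 or 3 (0.56 to 0.65, adjusted p = 0.12 to 0.16). CD274 entry 2 had 2.65, 1.12 and 1.74 FPKM in SCI hindbrains at 3 days and 0.673, 0.857 and 0.273 FPKM in unoperated hindbrains (1.07 ± 0.29, adjusted p = 0.053). At 7 days entry 1 had 22.6, 32.2 and 38.0 FPKM in SCI hindbrains (0.74 ± 0.20, adjusted p = 0.11) and at 3 weeks 21.1, 22.7 and 23.5 FPKM (0.31 ± 0.15, adjusted p = 0.27), both overlapping the unoperated frogs and not called. The tadpole response minus the frog response was -1.12 ± 0.24, adjusted p = 0.022 for entry 1 and -1.495 ± 0.36, adjusted p = 0.036 for entry 2 at 3 days, where 5.91% of all entries were called and 3.23% were lower. At 3 weeks the sign was the other way for entry 1, 1.63 ± 0.26, adjusted p = 0.048, with 0.0784% of all entries called and 0.0343% higher, so that the response was lower in tadpoles than in frogs at 3 days and higher at 3 weeks. The 3-day term of entry 1 lost its call without tadpole SCI replicate 2, unoperated tadpole replicate 3 or unoperated frog replicate 2 or 3 (adjusted p up to 0.057). That of entry 2 was lost without any 1 of 9 libraries (all but unoperated frog replicates 1 and 2 and frog SCI replicate 2, -1.61 to -1.25, adjusted p = 0.052 to 0.085), and the 3-week term of entry 1 without any library but unoperated tadpole replicates 1 and 2 (1.44 to 1.72, adjusted p = 0.061 to 0.13).

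**Figure D2:**
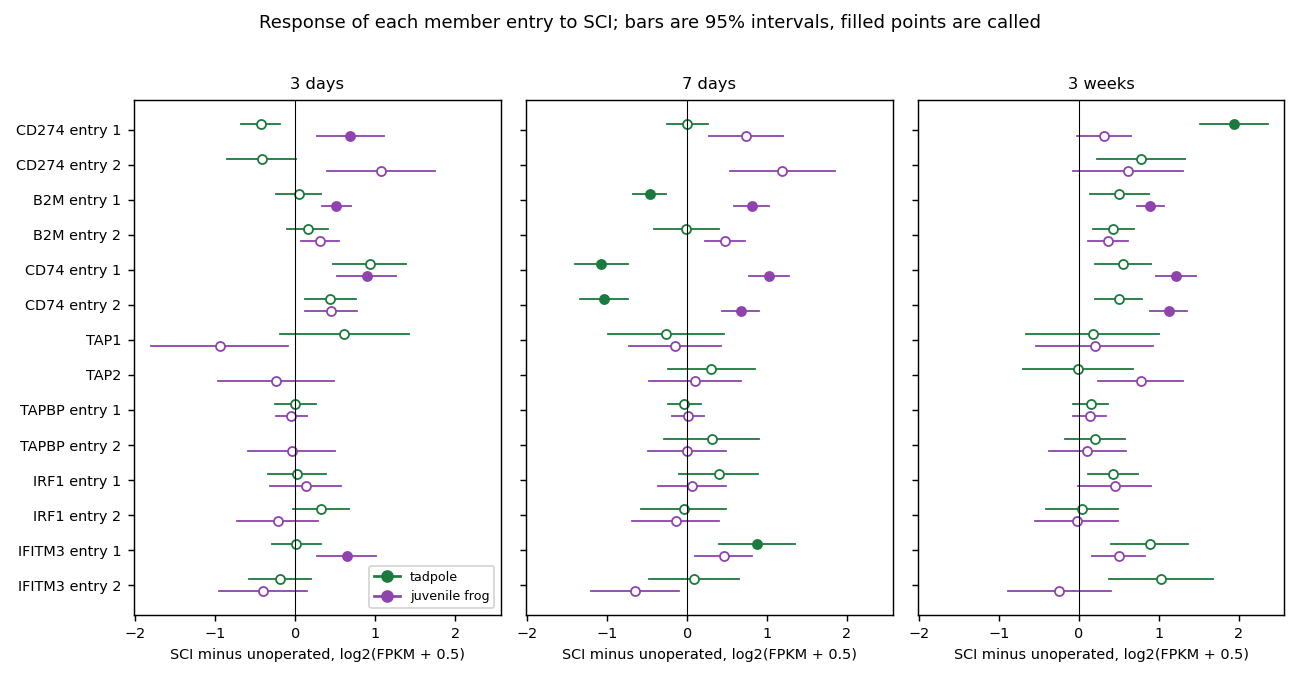
Log2 difference of SCI minus unoperated hindbrain, on the log2(FPKM + 0.5) scale (horizontal axes), for the 14 tested member entries (rows) at 3 days, 7 days and 3 weeks. Bars are 95% intervals from 3 libraries per group, green is tadpole, purple is juvenile frog, and filled points have an adjusted p of at most 0.05. CD74 and B2M entry 1 point in opposite directions at 7 days, and CD274 entry 1 in tadpoles at 3 weeks lies farthest to the right at 1.94.

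Over the 51 libraries, after the mean of each tissue was subtracted, each member was set against the entries of other symbols with a mean of at least 1 FPKM. The entry most like CD274 entry 1 among them was RHAG (Pearson r = 0.88, beside 0.73 for CD274 entry 2), which in mammals encodes a red cell membrane protein. GATA1, a transcription factor of red cell precursors, followed with r = 0.77, and BTN3A1, a butyrophilin, with r = 0.77. Within tissues r with RHAG was 0.76 over 18 tadpole hindbrains, 0.81 over 12 frog hindbrains and 0.81 over 21 eyes. These are descriptions, since the libraries share their groups and depth. Red cell markers were therefore read beside CD274. In tadpole SCI at 3 weeks RHAG had 1.15, 1.12 and 1.18 FPKM in SCI hindbrains and 0.510, 0.485 and 0.697 FPKM in unoperated hindbrains, higher in each SCI library but not called (0.64 ± 0.15, adjusted p = 0.14). RHAG was picked by its likeness to CD274 entry 1 over libraries that include these hindbrains, so its higher values here are no separate result. The 24 entries of the red cell list (globins, ALAS2, SLC4A1, EPB42, GATA1 and TAL1) summed to 473 to 518 FPKM in SCI hindbrains and 450.2 to 614 FPKM in unoperated hindbrains at that time, ranges that overlap, with 0 of 17 risen and 1 fallen. Of all entries 0.101% were called at that time.

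At 3 days the red cell sum was lower after tadpole SCI, at 1016 to 1148 FPKM in SCI and 2543 to 3819 FPKM in unoperated hindbrains, and 5 of 19 entries fell. At 7 days it was higher, at 585 to 1024 FPKM in SCI and 244 to 283 FPKM in unoperated hindbrains, and 4 of 15 rose, while CD274 entry 1 overlapped between the groups. Of all entries 1.85% were called at 3 days and 4.91% at 7 days, 2.85% higher. The mean sum at 3 and 7 days was 1071 and 872 FPKM in SCI hindbrains and 3014 and 260 FPKM in unoperated hindbrains. The change of sign thus goes with the 2 unoperated sets, whose age and set cannot be told apart. In frogs the red cell sum was 3719 to 4335 FPKM in SCI hindbrains at 3 days and 2453 to 3508 FPKM in unoperated hindbrains, with 3 of 18 risen and 2 fallen. Of all entries 11% were called in that comparison, 7.36% higher. HBA2, HBB and HBG1 were not analysed here. Blood in the tissue as a source of CD274 reads was not tested.

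**Figure D3:**
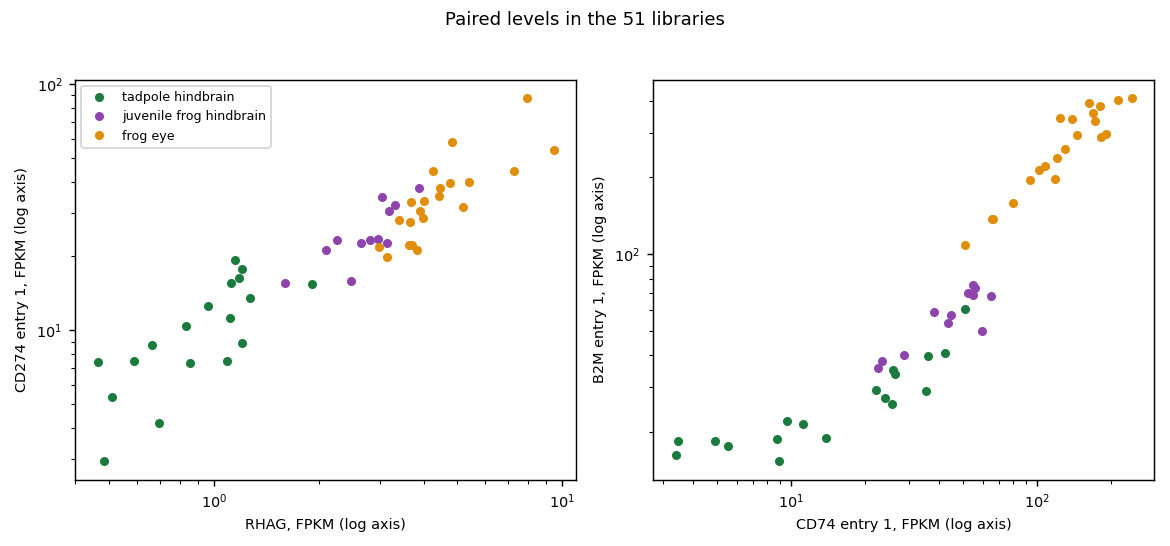
Left, CD274 entry 1 against RHAG, and right, B2M entry 1 against CD74 entry 1, in FPKM on log axes, 1 point per library. Green is tadpole hindbrain, purple juvenile frog hindbrain and orange frog eye. In both pairs the 2 levels are higher in the same libraries within each tissue, with r over 30 hindbrain libraries of 0.90 on the left and 0.91 on the right.

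Between homeologs r was 0.92 for B2M entries 1 and 2 and 0.96 for CD74 entries 1 and 2. Among the entries of other symbols, B2M entry 1 was most like HLA-DMA, a class II peptide loading factor (r = 0.91), and CD74 entries 1 and 2 (r = 0.90 and 0.88). CD74 entry 1 was there most like IGSF1 (r = 0.91), B2M entry 1 (0.90) and LY75-CD302 (0.90), and CD74 entry 2 like IGSF1 (0.93), PCGF5 (0.92) and LY75-CD302 (0.91). B2M and CD74 thus varied together although one serves class I and the other class II. For IRF1 entry 1 the nearest entries were PSMB9, an immunoproteasome subunit (0.83), NMI (0.82) and GBP1 (0.82), all of which interferon induces in mammals. TAP2 was nearest to TAP1 (0.71), whose gene model overlaps it, and PSMB8 (0.64), another immunoproteasome subunit, on whose scaffold both lie. TAP2 itself lies under the mean of 1 FPKM asked of such entries, and of those above it TAP1 was nearest to ANKRD50 (0.59), and TAPBP entry 1 to GDPD2 (0.74). IFITM3 entry 1 was nearest to SSUH2 (0.87) and to 2 entries of IGF2BP3 (0.87 and 0.86), and IFITM3 entry 2 to CISH, a cytokine-induced inhibitor of STAT signalling (0.70).

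TAP1, TAP2 and TAPBP did not pass the test after SCI. TAP1 had 1.36, 0.351 and 0.139 FPKM in frog SCI hindbrains at 3 days and 1.95, 1.09 and 1.37 FPKM in unoperated frogs, which overlap (-0.95 ± 0.38, adjusted p = 0.14). Its SCI libraries spread widely, and replicates 2 and 3 were low for TAP2 as well, at 0.800, 0.182 and 0.0966 FPKM in SCI hindbrains and 0.478, 0.298 and 0.626 FPKM in unoperated frogs. In tadpoles at 3 days TAP1 had 3.21, 1.21 and 3.64 FPKM in SCI and 0.801, 1.60 and 2.18 FPKM in unoperated hindbrains, which overlap (0.61 ± 0.35, adjusted p = 0.36). TAP2 had 0.920, 0.944 and 1.62 FPKM in frog SCI hindbrains at 3 weeks and 0.478, 0.298 and 0.626 FPKM in unoperated frogs, without overlap and not called (0.77 ± 0.23, adjusted p = 0.12). TAPBP entry 1 hardly varied, and its largest injury difference in the hindbrain was 0.15 (95% interval -0.07 to 0.36) in tadpoles at 3 weeks, at 9.34, 10.2 and 9.07 FPKM in SCI and 8.88, 7.69 and 9.17 FPKM in unoperated hindbrains. TAPBP entry 2 stayed under 1 FPKM in every hindbrain library.

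IFITM3 entry 1 was called higher after SCI in tadpoles at 7 days and in frogs at 3 days. At 7 days it had 10.9, 9.36 and 13.4 FPKM in tadpole SCI hindbrains, against 4.03, 7.62 and 6.37 FPKM in unoperated tadpoles, without overlap (0.88 ± 0.21, adjusted p = 0.049). At 3 days it had 3.84, 5.31 and 4.32 FPKM in frog SCI hindbrains, against 2.17, 2.91 and 3.03 FPKM in unoperated frogs, again without overlap (0.64 ± 0.16, adjusted p = 0.042). Both calls were lost without any 1 of their 6 libraries (adjusted p up to 0.11 and 0.12). The tadpole value at 7 days was not called different from that of the unoperated tadpoles of 3 days (log2 difference -0.16, adjusted p = 0.52), nearer to them than to the unoperated tadpoles of 7 days. At 3 weeks in tadpoles it had 18.4, 10.5 and 9.72 FPKM in SCI and 6.78, 6.26 and 6.39 FPKM in unoperated hindbrains, without overlap and not called (0.89 ± 0.21, adjusted p = 0.14). IFITM3 entry 2 then had 2.79, 2.46 and 1.60 FPKM in SCI and 1.07, 1.24 and 0.378 FPKM in unoperated hindbrains, likewise not called (1.03 ± 0.28, adjusted p = 0.16).

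IRF1 passed in no SCI comparison. IRF1 entry 1 came nearest in tadpoles at 3 weeks, with 2.58, 2.99 and 2.27 FPKM in SCI and 1.96, 1.89 and 1.58 FPKM in unoperated hindbrains, without overlap (0.43 ± 0.14, adjusted p = 0.2). In frogs at 3 weeks it had 3.20, 2.27 and 2.98 FPKM in SCI and 1.53, 1.73 and 2.63 FPKM in unoperated hindbrains, which overlap (0.44 ± 0.20, adjusted p = 0.25). All values of this transcription factor in the hindbrain were at most 3.20 FPKM.

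Counted over the members, tadpole SCI at 3 days called 0 of 12 tested entries by limma, with 3 at an unadjusted p under 0.05 and 1.85% of all entries called. With the replicate number as a block it called 2 of 12, CD74 entry 1 higher and CD274 entry 1 lower, and 1001 of 19588 entries in all. At 7 days 1 rose and 3 fell of 13, and at 3 weeks 1 rose of 14. CD274 entry 2, B2M entry 2, TAP1, both TAPBP entries and IRF1 entry 2 were called in no SCI, ONC or contralateral comparison. Frog SCI called 4 of 14 at 3 days, all higher, where 7.36% of all entries were called higher and 11% in all. It called 3 of 14 at 7 days (1.42% of all entries called, 0.955% higher) and 3 of 14 at 3 weeks (0.403% called, 0.234% higher), all higher. In tadpoles at 3 weeks 13 of the 14 differences were positive, and the median log2 difference was 0.47 for the 14 member entries and -0.01 for all entries tested. The myeloid sums given above did not overlap at that time, and neither did the endothelial list, at 70.8 to 79.1 FPKM in SCI hindbrains and 63.2 to 64.5 FPKM in unoperated tadpoles with 0 of 16 entries called. Their part in the member differences was not tested. The medians in frogs were 0.22 for the 14 member entries and 0.03 for all entries tested at 3 days, 0.28 for the 14 member entries and 0.02 for all entries tested at 7 days and 0.40 for the 14 member entries and 0.00 for all entries tested at 3 weeks.

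In the eye, the letter B in the library names is given before the comparisons. Where a group held libraries with and without the letter, the lettered ones were above the others for 11 of 14 entries in ONC eyes of 3 days and of 11 days and for 13 of 14 in contralateral eyes of 3 days. The share of all entries split in this way was not computed, and members such as B2M and CD74 vary together, so nothing is read from these counts. The lettered libraries also differed over the whole table. In ONC eyes of 3 days they had 336 and 319 entries at 0, against 658 without the letter. In contralateral eyes of 3 days it was 492, against 896 and 1200, and in ONC eyes of 11 days 1050 and 1002, against 1222. The part of this in the split was not tested. B2M entry 1 had 258 and 339 FPKM in the lettered ONC eyes of 3 days and 137 FPKM in the one without. It had 393 FPKM in the lettered contralateral eye of 3 days and 137 and 109 FPKM in those without. CD74 entry 1 and IRF1 entry 1 split in the same way. The T cell list (21 entries) summed to 14.6 FPKM in the lettered contralateral eye of 3 days and to 4.59 FPKM in the lowest of that group, and its part in the split was not tested. All 3 contralateral eyes of 11 days carry the letter, and no eye of 3 weeks and no naive eye does, so that at 11 days the letter and the contralateral group cannot be told apart when naive eyes are the comparison.

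**Figure D4:**
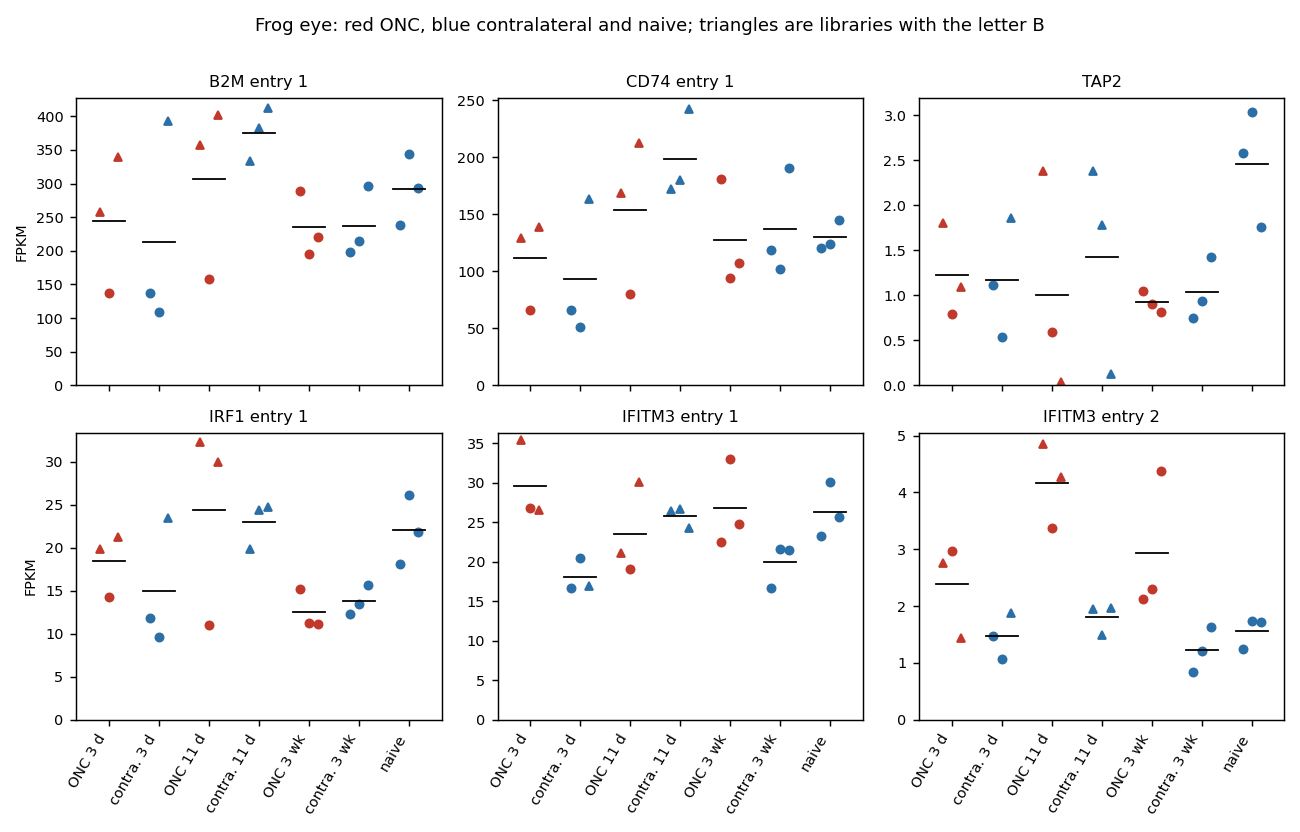
FPKM (vertical axes, linear) of 6 member entries in each eye library, 3 libraries per group, with the group mean as a black line. Red is ONC, blue is contralateral and naive, and triangles are libraries with the letter B. For B2M, CD74 and IRF1 the triangles lie above the circles within each mixed group, and IFITM3 entry 2 at 11 days is higher in all 3 ONC eyes (3.37 to 4.86 FPKM) than in the contralateral eyes (1.49 to 1.96 FPKM).

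Against the contralateral eye, ONC called 0 of 14 tested entries at 3 days (1 at an unadjusted p under 0.05, 0.19% of all entries called), 1 at 11 days (2.86% called, 2.24% higher) and 0 at 3 weeks (3 at an unadjusted p under 0.05, 0.612%). The one call was IFITM3 entry 2 at 11 days. It had 4.86, 3.37 and 4.27 FPKM in ONC eyes, against 1.95, 1.49 and 1.96 FPKM in contralateral eyes, without overlap (1.01 ± 0.17, adjusted p = 0.015). Among the lettered libraries alone the ONC eyes had 4.86 and 4.27 FPKM and the contralateral eyes 1.49 to 1.96 FPKM, and the call held with the letter as a covariate. It was lost without ONC replicate 1 or 3 or contralateral replicate 2 (0.91 to 0.99, adjusted p = 0.057 to 0.072). At 3 weeks IFITM3 entry 2 had 2.13, 2.29 and 4.37 FPKM in ONC eyes and 0.844, 1.21 and 1.64 FPKM in contralateral eyes, again without overlap but not called (0.96 ± 0.26, adjusted p = 0.23). CISH, the entry most like it, rose in ONC eyes at 11 days too (1.42 ± 0.15, adjusted p = 0.0014). CISH was picked by its likeness to IFITM3 entry 2 over libraries that include these eyes, so its rise is no separate result.

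IFITM3 entry 1 had 35.4, 26.8 and 26.6 FPKM in ONC eyes at 3 days, against 16.7, 20.4 and 16.95 FPKM in contralateral eyes, without overlap and not called (0.69 ± 0.16, adjusted p = 0.27). B2M entry 1 had 258, 137 and 339 FPKM in ONC eyes at 3 days and 137, 109 and 393 FPKM in contralateral eyes (0.35 ± 0.53, adjusted p = 0.92), and CD74 entry 1 had 129, 65.8 and 138 FPKM in ONC eyes and 65.7, 50.8 and 163 FPKM in contralateral eyes (0.37 ± 0.47, adjusted p = 0.91). Both overlapped widely, and the 95% interval for CD74, -0.74 to 1.48, does not exclude a change of the size seen in the frog hindbrain. The myeloid list meanwhile summed to 78.4 to 104 FPKM in ONC eyes at 3 days and 36.6 to 57.0 FPKM in contralateral eyes, with 0 of 14 entries called. At 3 weeks, when no library is lettered, CD74 entry 1 had 181, 93.9 and 107 FPKM in ONC eyes and 119, 102 and 190.0 FPKM in contralateral eyes (-0.11 ± 0.28, adjusted p = 0.94). CD274 entry 1 had 40.1, 28.5 and 88.0 FPKM in ONC eyes at 3 days and 22.3, 19.8 and 58.0 FPKM in contralateral eyes, where replicate 3 of both eyes, which are lettered, stood highest (0.65 ± 0.52, adjusted p = 0.9). It was higher in the ONC eye of each same-numbered pair, whereas B2M entry 1 and CD74 entry 1 were lower there in replicate 3. The paper took both eyes from the same frogs, but these fits did not pair them. Deviations of same-numbered libraries from their group means correlated at r of -0.21, 0.57 and 0.69.

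TAP1 and TAP2 were low together in the same pools. In eyes of 11 days TAP2 had 2.38, 0.593 and 0.0382 FPKM in ONC eyes and 2.38, 1.78 and 0.121 FPKM in contralateral eyes. TAP1 had 3.59, 1.47 and 0.331 FPKM in ONC eyes and 3.57, 2.28 and 0.271 FPKM in contralateral eyes. Replicate 3 of both eyes was the lowest for both genes, while B2M entry 1 was higher in that ONC pool (402 FPKM) and that contralateral pool (412 FPKM) than in the other pools of its group. PSMB8 on the same scaffold had 18.3, 4.99 and 4.33 FPKM in ONC eyes and 14.4, 12.4 and 5.72 FPKM in contralateral eyes. Over all 21 eye libraries r between TAP1 and TAP2 was 0.85, over 12 frog hindbrains 0.78 and over 18 tadpole hindbrains 0.24. The whole TAP2 model lies within the span of TAP1, and the part of reads from this overlap in the likeness was not tested.

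Contralateral eyes were set against naive eyes to see what changed in the uncrushed eye. These 3 comparisons share their naive libraries. At 3 days 0 of 14 entries were called (3 at an unadjusted p under 0.05, 0.102% of all entries called), and 13 of the 14 differences were negative. Their median was -0.58, beside -0.009 for all entries tested. Several members vary together, so these are not 14 separate observations. With the letter as a covariate, which leaves the contralateral eyes without it against the naive eyes, 11 of 14 were called lower, by -0.57 to -1.75, and 7.82% of all entries were called. Contralateral replicate 3 is the only lettered library of this comparison. Without it 11 of 14 were called lower, with 7.8% of all entries called. Both settings rest on the same remaining libraries, so they are not 2 separate tests. B2M entry 2 gives an example, with 35.2, 27.8 and 133 FPKM in contralateral eyes of 3 days and 106, 98.5 and 98.9 FPKM in naive eyes. This covariate was chosen after the values were seen.

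At 11 days CD74 entry 1 was called higher, with 172, 180.1 and 242 FPKM in contralateral eyes and 121, 124 and 145 FPKM in naive eyes (0.59 ± 0.14, adjusted p = 0.037), 1 of 14 where 9.18% of all entries were called and 4.26% were higher. It was lost without contralateral replicate 2 or any naive replicate (0.54 to 0.68, adjusted p = 0.052 to 0.12). The call was also lost with all groups of the tissue in 1 fit (adjusted p = 0.45 by limma). Every contralateral eye of 11 days and no naive eye carries the letter B, so the letter and the group cannot be told apart here. The myeloid list summed to 58.1 to 71.6 FPKM in contralateral eyes at 11 days and 43.3 to 48.9 FPKM in naive eyes, with 4 of 14 entries risen, and the T cell list to 12.8 to 14.5 FPKM in contralateral eyes and 7.58 to 8.34 FPKM in naive eyes, with 3 of 11 risen. The part of these cells in the CD74 value was not tested. At 3 weeks, with no lettered library, 2 of 14 were called, both lower (8.26% of all entries called, 3.85% lower). IRF1 entry 1 had 12.2, 13.4 and 15.6 FPKM in contralateral eyes, against 18.1, 26.1 and 21.8 FPKM in naive eyes (-0.65 ± 0.14, adjusted p = 0.034). TAP2 had 0.751, 0.934 and 1.42 FPKM in contralateral eyes, against 2.58, 3.04 and 1.76 FPKM in naive eyes (-0.95 ± 0.22, adjusted p = 0.04). Neither overlapped. The IRF1 call was lost without contralateral replicate 1 or 2 or naive replicate 2 or 3 (-0.65 to -0.52, adjusted p = 0.084 to 0.12), and the TAP2 call without any library but contralateral replicate 3 (-1.13 to -0.80, adjusted p = 0.083 to 0.13). Same-numbered libraries deviated together here (r of 0.17, 0.11 and 0.19), although naive and contralateral eyes come from different frogs, so the number marks no pair by design. With the replicate number as a block the TAP2 call was lost (-0.95 ± 0.24, adjusted p = 0.055 by limma), that of IRF1 entry 1 held, and IFITM3 entry 1 was called lower (-0.40 ± 0.08, adjusted p = 0.034).

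The wider pathways were followed with 5 lists of genes that exclude the members. In the class I list (heavy chains, immunoproteasome, chaperones), 0 rose and 2 fell of 26 tested entries in tadpole SCI at 7 days, beside 2.06% of all entries lower. One was HLA-C, a class I heavy chain (7.58 ± 2.24 against 18.0 ± 0.696 FPKM, log2 difference -1.23 ± 0.18, adjusted p = 0.014), and the other PSME2, a proteasome activator (2.22 ± 0.413 against 3.97 ± 0.353 FPKM, log2 difference -0.73, adjusted p = 0.035). HLA-C was also higher in the unoperated tadpoles of 7 days than in those of 3 days (18.0 ± 0.696 against 5.02 ± 1.44 FPKM, log2 difference 1.78 ± 0.17, adjusted p = 1.0e-04). In the other 5 SCI comparisons 0 of 24 to 27 class I entries were called, with list medians between -0.13 and 0.09, beside 0.101% to 11% of all entries called. In frogs, where entry 1 of the light chain B2M rose, no heavy chain of this list was called. Nothing is read from these zeros, and a difference between the light chain and the heavy chains was not tested.

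Some entries of the class II list (heavy chains, transactivators and lysosomal proteases) rose in frogs. At 3 days 5 of 26 rose and 0 fell, beside 7.36% of all entries higher, with a list median of 0.16. They were CTSB, 3 entries of CTSD, proteases of the lysosome, and HLA-DQA1, a class II heavy chain (6.97 ± 3.46 against 2.196 ± 0.597 FPKM, log2 difference 1.38 ± 0.34, adjusted p = 0.041). At 7 days 3 of 26 rose, beside 0.955% of all entries higher, HLA-DQA1 (6.32 ± 2.45 against 2.196 ± 0.597 FPKM, log2 difference 1.31 ± 0.25, adjusted p = 0.05), CTSB and 1 CTSD entry, and at 3 weeks 0 of 26, beside 0.234% higher. In tadpole SCI 0 of 25 or 26 entries were called at each time, beside 1.85%, 4.91% and 0.101% of all entries at 3 days, 7 days and 3 weeks. With shares this small nothing is read from the zeros, and the list was not tested for a difference between tadpoles and frogs.

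Few entries of the interferon lists were called after injury. In the sensing and signalling list 2 rose of 48 in frog SCI at 3 days, beside 7.36% of all entries higher, namely PIAS1, a SUMO ligase (5.38 ± 0.505 against 3.79 ± 0.310 FPKM, log2 difference 0.45 ± 0.12, adjusted p = 0.043), and IRF5. Among the interferon-induced effectors 1 rose and 1 fell of 29 in tadpole SCI at 7 days, beside 2.85% higher and 2.06% lower of all entries. These counts are near those shares, and nothing is read from them. NMI rose (3.08 ± 0.224 against 1.17 ± 0.430 FPKM, log2 difference 1.12 ± 0.19, adjusted p = 0.02), and IFIT5 fell at under 1 FPKM. In frog SCI 0 of 36, 0 of 38 and 0 of 35 effectors were called at 3 days, 7 days and 3 weeks, with medians of -0.11, -0.19 and -0.32. Of all entries 11%, 1.42% and 0.403% were called at these times, so nothing is read from the zeros at 7 days and 3 weeks. In ONC eyes at 11 days STAT3, the signal transducer of several cytokines, rose (8.84 ± 1.20 against 5.04 ± 0.304 FPKM, log2 difference 0.75 ± 0.13, adjusted p = 0.018), with RFX5, a transcription factor of class II genes (10.4 ± 0.722 against 6.82 ± 0.386 FPKM, log2 difference 0.57 ± 0.11, adjusted p = 0.027), and MR1, a class I-like molecule (2.06 ± 0.229 against 0.991 ± 0.152 FPKM, log2 difference 0.78 ± 0.16, adjusted p = 0.039). Each was the single call of its list, of 52, 30 and 30 entries, beside 2.24% of all entries higher, a share near that background from which nothing is read. In the checkpoint and costimulation list ICOSLG, a ligand of T cells, was the only call after SCI (7.94 ± 0.602 against 11.6 ± 0.752 FPKM, log2 difference -0.52 ± 0.10, adjusted p = 0.029), in tadpoles at 7 days and 1 of 7 tested. ICOSLG too was higher in the unoperated tadpoles of 7 days than in those of 3 days (11.6 ± 0.752 against 5.57 ± 0.769 FPKM, log2 difference 1.00 ± 0.11, adjusted p = 1.7e-04).

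Between tissues the class II list had 25 higher and 3 lower of 31 entries in naive eyes against unoperated frog hindbrains. CTSS, a lysosomal protease that cuts the invariant chain, led it (94.6 ± 26.7 against 0.887 ± 0.784 FPKM, log2 difference 6.20 ± 0.35, adjusted p = 8.8e-07). In the class I list 17 were higher and 2 lower of 32, led by PSMB8 (17.1 ± 3.72 against 0.476 ± 0.195 FPKM, log2 difference 4.17 ± 0.19, adjusted p = 2.8e-07). Of the interferon-induced effectors 20 were higher and 13 lower of 47. One IFIT5 entry was the most different (358 ± 82.1 against 0.192 ± 0.109 FPKM, log2 difference 9.003 ± 0.18, adjusted p = 3.8e-09), while IFITM10, of the same family as IFITM3, was lower in eyes (1.19 ± 0.380 against 16.7 ± 0.925 FPKM, log2 difference -3.37 ± 0.17, adjusted p = 4.4e-07). All 5 lists are read against the 41.4% of entries higher in naive eyes.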

How the data were processed

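The values used are the FPKM of each gene model in each library, as deposited by the authors. The authors aligned stranded, rRNA-depleted single-end reads with Bowtie2 2.2.9 and TopHat2 2.1.1 to the Xenbase v9.1 assembly and estimated FPKM on the Mayball gene models with Cufflinks. Its library normalization is not stated. An entry was tested if its mean reached 0.45 FPKM in a compared group, with limma 3.58.1 in R 4.3.3 (lmFit, eBayes with trend, two-sided) on log2(FPKM + 0.5), with only the libraries of a comparison in the fit. The Benjamini-Hochberg adjustment ran over every tested entry, calls were made at 0.05, and a ± beside a log2 difference is its standard error while a ± beside FPKM is the SD of 3 libraries. Differences between responses were interaction contrasts. The scripts were tested on simulated data. Alternatives were pseudocounts of 0.1 and 1, no minimal expression, median-of-ratios scaling, all groups of a tissue in 1 fit, replicate number as a block, the omission of each library and, for ONC, controls from naive eyes. The library letter as a covariate and 3-day tadpoles as controls were added after the data were seen. The paper describes paired tadpole replicates and both eyes of the same frogs, but same-numbered libraries deviated together (every r over 0.1) only in tadpole SCI at 3 days and in contralateral against naive eyes at 3 weeks. The members and lists were chosen with earlier results of these data known. Per-library values are given for entries called in an injury comparison and the highest entry of each gene, pathway genes by their largest called rise or fall (mean of at least 1 FPKM, no overlap), and like entries as the 3 highest Pearson r. RFX5, IRF5, CTSB, CTSD, PSME2 and other genes named beside these were chosen after their values were seen. Sequences were not analysed here, and some list genes are not reported.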

Additional observations from a re-analysis of the deposited data

Results flagged for a closer look

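Responses to SCI differed between tadpoles and juvenile frogs in a direct test (limma interaction contrast, tadpole minus frog, log2) for 6 results. At 3 days CD274 entry 1 differed by -1.12 and CD274 entry 2 by -1.495, with 5.91% of all entries called. These 2 calls were lost in 4 and 9 of 12 omissions of 1 library. At 7 days B2M entry 1 differed by -1.28, CD74 entry 1 by -2.10 and CD74 entry 2 by -1.71, with 4.35% of all entries called. These held in all 12 omissions, which do not address the choice of the unoperated tadpoles of 7 days as controls. Against the unoperated tadpoles of 3 days the tadpole differences were positive, 0.15, 1.41 and 0.82 in the same order. The terms were not computed with those controls. At 3 weeks CD274 entry 1 differed by 1.63, in the opposite direction to 3 days, with 0.0784% of all entries called. That call was lost in 10 of 12 omissions and held under 2 of 6 other settings. Beside the 7-day values, the myeloid list summed to 16.3 to 23.2 FPKM in tadpole SCI hindbrains and 15.1 to 20.9 FPKM in unoperated tadpoles, and to 37.9 to 43.8 FPKM in frog SCI hindbrains and 17.5 to 21.8 FPKM in unoperated frogs, and its part in the difference was not tested. The frog terms all use the same 3 unoperated libraries, which carry the letter R.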

How the results depend on the processing

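Of 48 single calls, 618 values under alternatives were computed, of which 503 kept direction and call, 111 kept direction and lost the call, and 4 changed sign. The 4 are tadpole SCI at 7 days against unoperated tadpoles of 3 days, 0.15 for B2M entry 1, 1.41 for CD74 entry 1, 0.82 for CD74 entry 2 and -0.16 for IFITM3 entry 1, where the controls are the set whose names give no time. Counts of member entries called moved as follows, and where no cause shows from the alternative's construction, the cause was not tested. When 1 fit held all groups of the tissue, the count was 1 for tadpole SCI at 3 days (0 in the comparison's own fit), 5 at 3 weeks (1), 6 for frog SCI at 7 days (3), 1 for ONC at 3 days (0), 0 for contralateral against naive at 11 days (1) and at 3 weeks (2), and 4 for unoperated tadpoles of 3 weeks against 7 days (0). With no minimal expression it was 0 for tadpole SCI at 3 weeks (1), 2 for frog SCI at 3 days (4) and 1 for contralateral against naive at 3 weeks (2). Median-of-ratios scaling gave 2 for frog SCI at 3 days (4). Naive eyes as controls gave 2 for ONC at 3 weeks (0). The letter covariate gave 11 for contralateral against naive at 3 days (0). The tadpole minus frog count at 3 weeks (1) was 0 with a pseudocount of 1, with no minimal expression, with median-of-ratios scaling and with the replicate block.

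With the replicate number as a block, 2 entries were called in tadpole SCI at 3 days (0), 7 in frog SCI at 3 days (4) and 0 in frog SCI at 3 weeks (3). With 3 libraries a group the block leaves few residual degrees of freedom.

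Leaving out 1 library at a time gave 0 to 0 entries for tadpole SCI at 3 days, 1 to 3 at 7 days and 0 to 1 at 3 weeks, 1 to 4 for frog SCI at 3 days and 0 to 3 at 7 days and 3 weeks. It gave 0 to 0 for ONC at 3 days and 3 weeks and 0 to 1 at 11 days, and 0 to 11, 0 to 2 and 0 to 3 for contralateral against naive eyes, in order of time. For unoperated tadpoles it gave 5 to 5 at 7 days against 3 days and 0 to 0 at 3 weeks against 7 days, for frogs against tadpoles 3 to 5 and for eye against hindbrain 13 to 13. For the tadpole minus frog responses it gave 0 to 2 at 3 days, 3 to 4 at 7 days and 0 to 1 at 3 weeks. Read counts are unknown from FPKM, so the counting error of entries under 1 FPKM, such as TAP2, could not be given.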
